A study of Saccharomyces cerevisiae with 12 samples.

Results

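Budding yeast has many protein-coding genes that are still known only by a systematic name, which encodes their chromosome, arm, order and strand. This account is about 53 such open reading frames (ORFs) whose messenger RNA signal lay well below its starting level late in a course of methyl methanesulfonate (MMS), out of 5449 genes measured. They were taken as the genes whose only symbol was a systematic name without a letter suffix and whose mean log2 signal at 100 to 180 min of MMS lay at least 0.8 below the mean of both arrays at 0 min. A signal 1.5 or more above time 0 at 30 and 60 min of peroxide would have removed a gene, but removed 0. YLL053C and YDR341C met the rule and were left out by name. The members were thus chosen by their time 0 and late MMS signals, which are given as a description with no test, and every comparison with time 0 shares arrays with that choice.

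Cells of Saccharomyces cerevisiae, of a strain not given in the sources used here, were grown in YPD, a rich glucose medium, to mid-log phase at 25 °C. At time 0 a culture received either 0.3 mM hydrogen peroxide, an oxidant, or 0.1% MMS, which methylates DNA bases. Total RNA was hybridised to 12 one-colour Affymetrix arrays, 1 array for each of the 6 times (0, 30, 60, 100, 140 and 180 min) of the 2 courses. The time 0 group held the 0 min array of each course (n = 2), the early window of a stress its arrays at 30 and 60 min (n = 2) and the late window those at 100, 140 and 180 min (n = 3). In each window of a stress the times of 1 course stood in for replicates, so the tests measure differences between windows mainly against the change within them. The time 0 group, with 1 array of each course, also enters the pooled error. The spread of repeat cultures under a stress was not measured. In a bulk culture a lower transcript level in every cell and its loss from some of the cells cannot be told apart.

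As background, growing yeast spends much of its transcription on ribosomes and their assembly, and a wide range of stresses lowers those transcripts together in what is known as the environmental stress response. That response is usually transient, and lasts longer under a sustained stress. MMS also blocks replication forks and activates the Mec1 and Rad53 checkpoint kinases. ORFs without a name include enzymes known only by homology, small proteins, and copies within repeated elements such as the subtelomeric Y' elements and the Ty retrotransposons, for which a probe set can read several nearly identical loci at once.

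Marker genes were read as a check of the labels. RNR3, the damage-induced subunit of ribonucleotide reductase, lay 3.06 above time 0 on the log2 scale in the late MMS window, against 2.61 in the late peroxide window. MAG1, an alkyladenine glycosylase, stood at 2.94 and 0.75. HUG1, read for the same check, went the other way, at 2.91 late in MMS and 3.72 late in peroxide. In the same windows TSA2 stood at 6.81 and 6.96, and TRX2 at 0.694 and 0.475. SRX1, the sulfiredoxin gene, lay 6.60 above time 0 in the early peroxide window, and 6.62 in the early MMS window. In the late windows it stood at 1.10 in peroxide and 5.97 in MMS. Actin (ACT1) lay 0.13 above time 0 late in MMS. Array medians over genes lay between 9.06 and 9.20 log2, and the median of all genes stood 0.09 above time 0 in the late MMS window. Precision is limited by how few arrays there are.

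**Figure D1:**
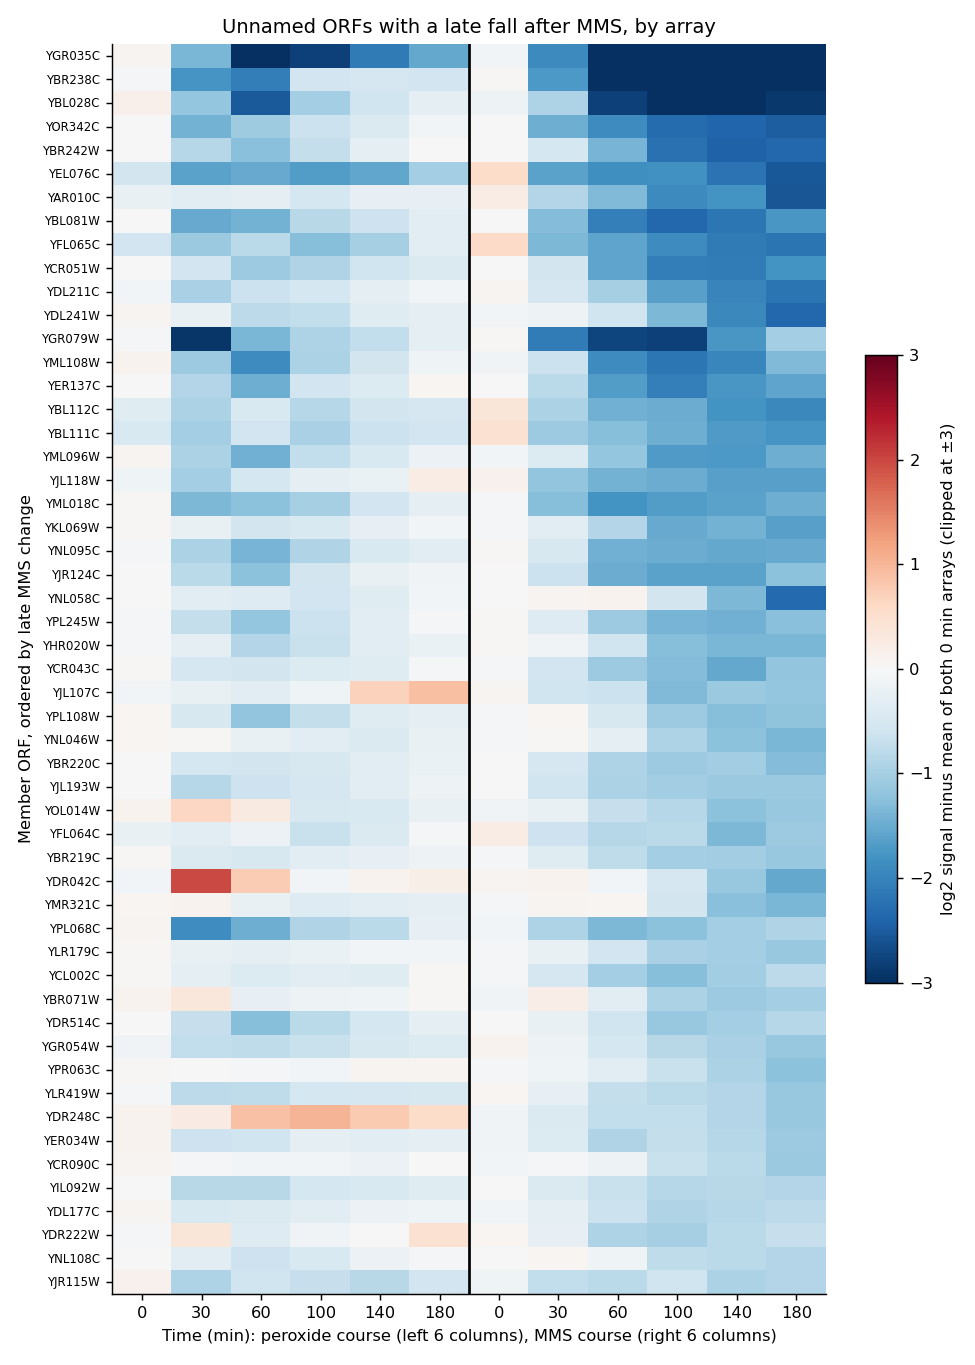
Log2 signal of each of the 53 ORFs on each of the 12 arrays, minus the mean of both 0 min arrays, with ORFs as rows ordered by their late MMS change and times in min as columns, peroxide on the left and MMS on the right. The late MMS columns are blue in every row, by the choice of the ORFs, among the peroxide columns after 0 min the median is nearest to 0 at 180 min (-0.20), and YDR042C and YDR248C are red in the early peroxide columns.

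Late in MMS the 53 ORFs lay between 0.81 and 4.76 below time 0, with a median of -1.34, which is 1.75-fold to 27-fold lower and 2.52-fold at the median. Of all 5449 genes, 20.7% lay 0.8 or more below time 0 in that window, and of the 357 genes with a systematic name only, 55 did (15.4%), shares whose difference was not tested. The other 304 genes with a systematic name had a median of 0.43 above time 0. Of the 53, 42 lay at least 1 and 9 at least 2 below time 0. All 3 late arrays lay below both time 0 arrays for each of the 53, which the rule nearly forces (39.1% of all genes).

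The MMS courses did not share 1 shape. Relative to time 0, the median over the 53 ORFs stood at -0.49 after 30 min of MMS and -0.93 after 60 min, and then at -1.28, -1.34 and -1.31 on the 3 late arrays. In peroxide the same median was -0.69 after 30 min and -0.20 after 180 min. Both early MMS arrays lay below both time 0 arrays for 45 ORFs (38.3% of all genes), both early peroxide arrays for 43 (41.7%) and all 3 late peroxide arrays for 39 (39.6%). A late peroxide mean 0.8 or more below time 0 was seen for YGR035C, YEL076C and YFL065C (2.68% of all genes). The lowest array of the course was that at 180 min for 25 ORFs (21.9% of all genes), at 140 min for 13, at 100 min for 13 and at 60 min for 2, YML018C and YPL068C. In 21 ORFs the signal dropped at each step from 100 to 140 to 180 min, against 30.3% of all genes. These counts come from 1 array per time and carry no test.

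**Figure D2:**
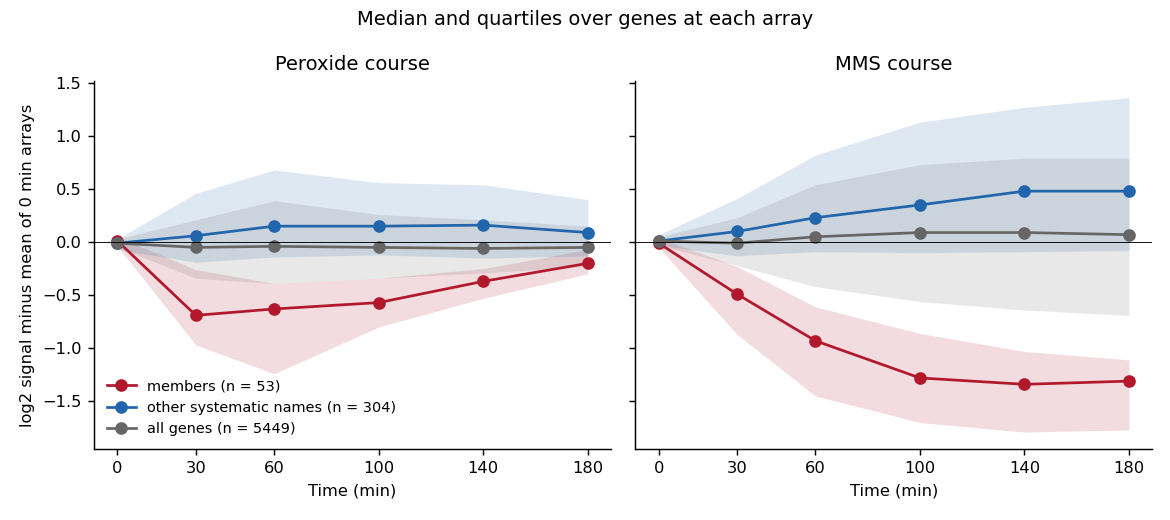
Median (points) and quartiles (bands) over genes of the log2 signal minus the mean of both 0 min arrays, against time in min, in the peroxide course (left) and the MMS course (right), for the 53 ORFs, the other 304 systematic-name genes and all 5449 genes. The ORFs' median returned from -0.69 at 30 min to -0.20 at 180 min of peroxide, and stood at -1.31 at 180 min of MMS.

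YGR035C and YBR238C lay furthest below time 0 late in MMS. YGR035C, an uncharacterised gene, read 8.94, 7.09, 5.05, 4.14, 4.19 and 4.43 on the MMS arrays from 0 to 180 min and 9.09, 7.65, 5.69, 6.20, 6.90 and 7.48 on the peroxide arrays. Its late MMS mean lay -4.76 (SD of the late arrays 0.16, n = 3) from time 0, 27-fold lower. It also stayed low in peroxide, -1.61 from its own 0 min array at 180 min, the furthest of the 53. YBR238C, a mitochondrial protein related to the mRNA-processing factor Rmd9, read 8.70, 6.95, 5.18, 4.99, 5.49 and 5.23 in MMS and 8.64, 6.90, 6.60, 8.10, 8.16 and 8.10 in peroxide. Its late MMS mean lay -3.43 (SD of the late arrays 0.25, n = 3) from time 0, 10.8-fold lower. After 60 min of peroxide YBR238C came back to about 8.1 on each later array, whereas its MMS arrays stayed between 4.99 and 5.49 from 60 min onward. The late minus early peroxide difference was 1.37 ± 0.39, adjusted p = 0.0592 for YBR238C, which did not pass, and 0.19 ± 0.65, adjusted p = 0.882 for YGR035C.

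YBL028C, whose product is known to localise to the nucleolus, where ribosomes are assembled, read 8.47, 7.71, 5.83, 5.03, 5.45 and 5.73 in MMS. Its peroxide arrays read 8.79, 7.48, 6.12, 7.61, 8.02 and 8.35. Both courses dropped to about 6 at 60 min and then parted, and the late MMS mean lay -3.23 (SD of the late arrays 0.35, n = 3) from time 0. Over the 12 arrays its closest matches among genes with a standard name were TSR1 (Pearson r = 0.993) and RLP7 (r = 0.992), both ribosome assembly factors. Such a correlation is a description across 12 arrays of 2 courses, and the arrays of a course are not independent of each other. The 12 arrays include those that chose the ORFs. Each match is also the best of all genes with a standard name, 1054 of which lay 0.8 or more below time 0 late in MMS. Of 146 ribosome biogenesis genes, 142 lay 0.8 or more below time 0 late in MMS, 119 early in MMS and 139 early in peroxide, with a late MMS median of -2.43. The matching counts for the 53 ORFs were 21 early in MMS (8.68% of all genes) and 22 early in peroxide (9.98%), of which 16 were shared (6.28%). Of the other ORFs with the largest late falls, YBR242W was closest to ITR1 and UTP22 (r = 0.994 each), YBR238C to HEM1 (0.992) and SMP3 (0.989), YOR342C to GIC1 and YOX1 (0.989 each) and YGR035C to BER1 and SVF1 (0.988 each).

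YOR342C, uncharacterised, read 9.55, 8.07, 7.66, 7.22, 7.16 and 7.08 in MMS and 9.52, 8.13, 8.48, 8.90, 9.11 and 9.45 in peroxide, with a late MMS mean -2.39 (SD of the late arrays 0.07, n = 3) from time 0. YBR242W, a member of the HD-domain phosphohydrolase family, read 10.26, 9.73, 8.85, 8.02, 7.82 and 7.89 in MMS and 10.23, 9.38, 8.98, 9.52, 9.97 and 10.26 in peroxide, where it was back at its 0 min value by 180 min. YCR051W, an ankyrin-repeat protein, read 11.32, 10.78, 9.74, 9.24, 9.23 and 9.53 in MMS and 11.33, 10.76, 10.24, 10.41, 10.73 and 10.89 in peroxide. In each of these 3 ORFs the late MMS arrays lay below every peroxide array. YBL081W, uncharacterised, was lowest at 100 min of MMS, with 8.50, 7.21, 6.47, 6.15, 6.34 and 6.77, and its peroxide arrays read 8.52, 7.0, 7.10, 7.68, 7.88 and 8.17. YDL211C and YDL241W, by contrast, had their lowest MMS arrays at 180 min. YDL211C read 7.76, 7.18, 6.68, 6.04, 5.68 and 5.48 and YDL241W 9.64, 9.57, 9.13, 8.38, 7.79 and 7.37 in MMS. YDL241W had an early MMS mean -0.38 from time 0 against -1.88 late.

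YGR079W and YPL068C, both uncharacterised, reached their lowest MMS signal by 100 min or sooner and read higher at 180 min. YGR079W read 8.53, 6.40, 5.74, 5.70, 6.75 and 7.49 in MMS and 8.47, 5.58, 7.13, 7.58, 7.75 and 8.21 in peroxide, so that it lay -2.43 from time 0 in the early MMS window and -1.85 in the late one, with the widest spread among late arrays of the 53 (SD 0.90, n = 3). YPL068C read 8.02, 7.18, 6.75, 6.88, 7.08 and 7.20 in MMS and 8.19, 6.25, 6.63, 7.19, 7.29 and 7.84 in peroxide. Both reached their lowest peroxide signal at 30 min. YML108W and YER137C had the same kind of course, with MMS minima at 100 min of 6.96 and 6.70 and values of 7.80 and 7.16 at 180 min.

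Several of the ORFs encode proteins with a known or predicted activity despite the lack of a name. YHR020W, the prolyl-tRNA synthetase, read 11.90, 11.76, 11.27, 10.58, 10.49 and 10.48 in MMS and 11.82, 11.60, 10.97, 11.18, 11.52 and 11.66 in peroxide. Its late MMS arrays lay within 0.1 of each other, -1.34 from time 0. YGR054W, the translation initiation factor eIF2A, was at -0.98, and YLR419W, a predicted DEAH-box RNA helicase, at -0.94. YKL069W, which reduces free methionine sulfoxide, was at -1.52 late in MMS but only -0.39 early in peroxide. YML096W, which carries a domain like that of asparagine synthetase, was at -1.63. YLR179C, related to the carboxypeptidase Y inhibitor Tfs1, was at -1.04, while its annotated neighbour TFS1 lay 5.24 above time 0.

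Predicted membrane transporters made up a further group. YML018C, a vacuolar membrane protein, was at -1.58 late in MMS, YNL095C, related to auxin efflux carriers, at -1.51, and YJR124C, of the major facilitator type, at -1.49. YBR220C, related to acetyl-CoA transporters, was at -1.14 and YJL193W, related to sugar-phosphate transporters, at -1.09. All 5 also lay below time 0 early in peroxide, from -1.29 for YML018C to -0.54 for YBR220C, and within 0.4 of their own 0 min array at 180 min of peroxide. Neither trait was particular to them, since only 4 of the 53 ORFs lay above time 0 early in peroxide. At 180 min of peroxide, 48 of the 53 were within 0.5 of their own 0 min array (86.1% of all genes). YBR220C overlaps YBR219C, another member, in the annotation, and their late MMS means were -1.14 and -1.07.

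Of the 53 ORFs, 8 were read by probe sets of a type shared between similar genes (15.1%, against 2.13% of all genes), so their signal cannot be given to 1 locus. As background, YEL076C, YFL065C, YFL064C, YBL112C and YBL111C lie in subtelomeric Y' elements, and YAR010C encodes the Gag protein of a Ty1 retrotransposon. In the annotation these 5 Y' ORFs are 2 to 5 genes from a chromosome end. Their 0 min arrays differed between the courses. The MMS course read higher at 0 min by 1.15 for YFL065C, 1.12 for YEL076C, 0.92 for YBL111C, 0.71 for YBL112C, 0.44 for YFL064C and 0.44 for YAR010C. These were the only 6 of the 53 with 0 min arrays 0.4 or more apart (2.07% of all genes), and for the 45 ORFs with probe sets of 1 gene the difference lay between -0.32 and 0.26. With 1 array per course, what sets these 0 min arrays apart was not tested. The 6 repeat ORFs were chosen by their low late MMS signal, and the genes next to them did not all share it. Late in MMS, YEL075C beside YEL076C stood at 0.12, YBL113C beside YBL112C at -0.39 and YAR009C beside YAR010C at -0.47. YEL076C-A, on the other side of YEL076C, stood at -3.16.

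YEL076C read 6.17, 4.01, 3.77, 3.79, 3.41 and 3.07 in MMS and 5.05, 4.0, 4.09, 3.94, 4.05 and 4.59 in peroxide. YFL065C read 7.46, 5.53, 5.30, 5.0, 4.76 and 4.69 in MMS and 6.30, 5.77, 6.07, 5.61, 5.89 and 6.56 in peroxide. In both, the peroxide array at 180 min was within 0.5 of that at 0 min and the MMS array at 180 min was the lowest of the 12. Measured from the MMS 0 min array alone, the late MMS mean was -2.75 for YEL076C, -2.64 for YFL065C, -2.10 for YBL111C, -2.09 for YBL112C and -1.29 for YFL064C, against -2.19, -2.06, -1.64, -1.74 and -1.07 from both 0 min arrays. YFL064C was dim throughout, at 4.56 or less, and YEL076C read 4.59 or less on every array after 0 min. Signals that dim can lie near background, which limits how well the size of these falls can be read. The Ty1 Gag ORF YAR010C was bright and nearly flat in peroxide, with 12.32, 12.21, 12.24, 12.001, 12.28 and 12.28. In MMS it read 12.76, 11.67, 11.21, 10.62, 10.74 and 9.96, and its MMS arrays from 30 min onward all lay below every peroxide array. The early MMS minus early peroxide difference of YAR010C was -0.79 ± 0.26, adjusted p = 0.092, which did not pass. The other 2 shared probe sets, of YBR219C and of YMR321C, a relative of the S-methylmethionine homocysteine methyltransferases, had 0 min arrays within 0.1 of each other.

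**Figure D3:**
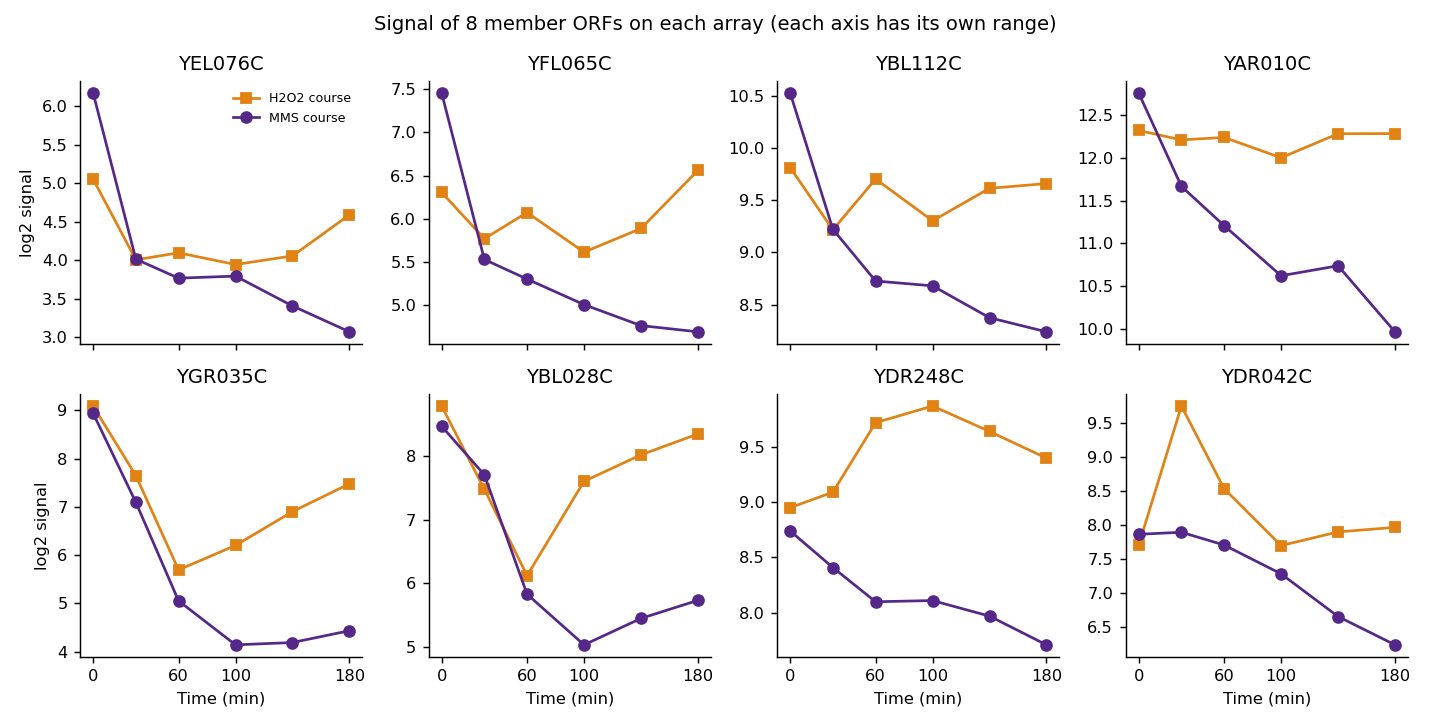
Log2 signal of 8 ORFs on each array against time in min, peroxide as orange squares and MMS as purple circles, each panel on its own axis. The Y' ORFs YEL076C, YFL065C and YBL112C and the Ty1 ORF YAR010C start higher in the MMS course, YGR035C and YBL028C drop together in both courses to 60 min, and YDR248C and YDR042C move up in peroxide and down in MMS.

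In 26 of the 53 ORFs neither early window lay 0.8 or more below time 0 (87.6% of all genes). YNL058C, uncharacterised, read 10.34, 10.44, 10.46, 9.81, 9.02 and 8.04 in MMS, above both time 0 arrays at 30 and 60 min and -2.24 from the peroxide array at 180 min. YMR321C read 11.50, 11.63, 11.60, 10.998, 10.30 and 10.19, also above both time 0 arrays in the early window. YPR063C read 11.17, 11.08, 10.89, 10.53, 10.25 and 9.97 in MMS and between 11.11 and 11.27 on all peroxide arrays. YCR090C read 9.60, 9.61, 9.52, 9.0, 8.86 and 8.56 in MMS and 9.75, 9.60, 9.60, 9.59, 9.49 and 9.66 in peroxide. YNL046W read 8.81, 8.89, 8.58, 7.94, 7.63 and 7.48 in MMS. In YPR063C, YCR090C, YNL046W, YNL058C and YMR321C the signal dropped at each step from 60 to 180 min of MMS. The peroxide course stayed within a range of 0.5 in 7 of the 53 ORFs, YAR010C, YNL046W, YBR219C, YLR179C, YCL002C, YPR063C and YCR090C. The share of all genes with so narrow a range was not counted.

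A few ORFs lay above time 0 in part of the peroxide course and below it late in MMS. YDR248C, a gluconokinase, read 8.95, 9.09, 9.72, 9.87, 9.64 and 9.40 in peroxide and 8.74, 8.41, 8.10, 8.11, 7.97 and 7.71 in MMS. It was the only 1 of the 53 with every late peroxide array above both time 0 arrays, and its early MMS minus early peroxide difference was -1.15 ± 0.23, adjusted p = 0.0207. YOL014W, uncharacterised, read 7.22, 7.74, 7.39, 6.64, 6.65 and 6.88 in peroxide and 7.01, 6.89, 6.43, 6.27, 5.89 and 5.97 in MMS. It was lower in the early MMS than in the early peroxide window (-0.90 ± 0.19, adjusted p = 0.0251) and lower late than early in peroxide (-0.84 ± 0.18, adjusted p = 0.0209). YDR042C, uncharacterised and the ORF nearest to the peroxide ceiling of 1.5, read 7.70, 9.75, 8.54, 7.70, 7.90 and 7.97 in peroxide, a peak at 30 min, and 7.87, 7.89, 7.71, 7.28, 6.66 and 6.24 in MMS. It was lower late than early in peroxide (-1.29 ± 0.35, adjusted p = 0.0494), a call that was lost in 11 alternatives and kept in 7, and absent without either 0 min array (adjusted p = 0.0821). Its MMS minus peroxide difference in the early windows, -1.34 ± 0.38, adjusted p = 0.0599, did not pass, but did with the time point as a block (adjusted p = 0.0332). YJL107C read 6.85, 6.71, 6.61, 6.82, 7.64 and 7.83 in peroxide, up at 140 and 180 min only, and 7.03, 6.34, 6.29, 5.61, 5.83 and 5.78 in MMS. Its late minus early peroxide difference of 0.77 ± 0.24, adjusted p = 0.0785 did not pass. YDR222W and YBR071W had peroxide arrays above both time 0 arrays at 30 min, as did the 30 min MMS array of YBR071W (9.44, against 9.34 and 9.12 at 0 min). They lay -0.84 and -1.02 from time 0 late in MMS.

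**Figure D4:**
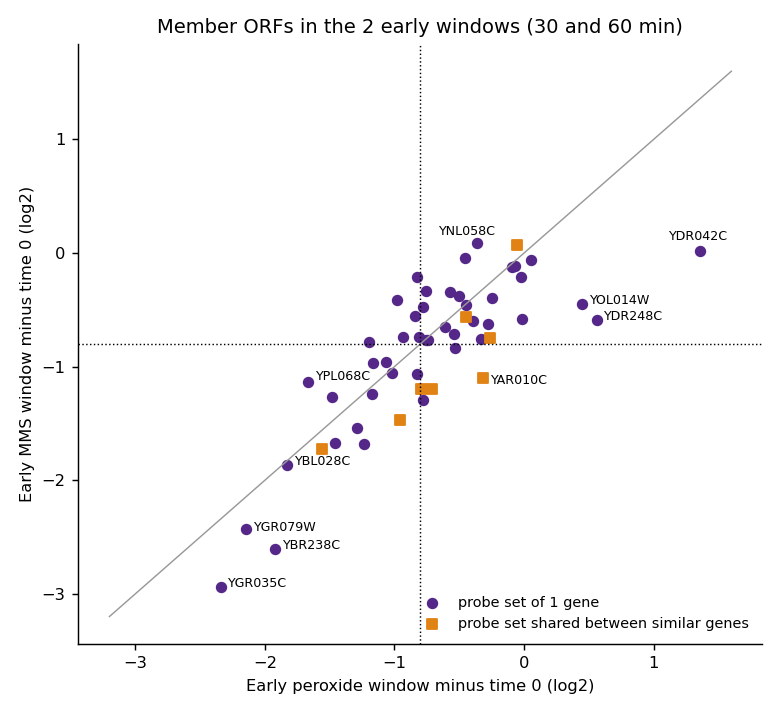
Early MMS window against early peroxide window, each as the mean log2 signal at 30 and 60 min minus the mean of both 0 min arrays, with 1 point per ORF, the line of equal change in grey and -0.8 dotted. Both axes share the 0 min arrays, and YDR042C, YDR248C and YOL014W lie furthest to the right of the line, with early MMS minus early peroxide differences of -1.34, -1.15 and -0.90.

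The comparison of the early MMS with the early peroxide window asks whether the ORFs responded differently to the 2 stresses within 60 min, and its difference is taken from neither the time 0 nor the late MMS arrays. Its error is pooled over all 5 groups, so those arrays do enter the SE and the p. Of the 53 ORFs, limma called 2 lower in MMS, YDR248C and YOL014W, and 0 higher, against 2.39% and 5.74% of all genes and 8.13% in either direction. At an unadjusted p under 0.05, 6 were lower (9.05% of all genes) and 5 higher (17.6%), the latter YPL108W, YDR514C, YGR054W, YIL092W and YNL108C. The difference was below 0 for 36 ORFs (44.2% of all genes) and above 0 for 17 (55.8%), with a median of -0.11 over the 53 ORFs and 0.05 over all genes. Over the 45 ORFs with probe sets of 1 gene it was -0.04 and over the 8 with shared ones -0.44. The 1054 genes with a standard name and a late MMS fall of 0.8 or more had a median of -0.06. The ORFs were chosen by a low signal later in the same MMS course, so all genes are not a like comparator for these signs. The 2 calls are 3.77% of the ORFs, and a difference that missed the test is not shown to be absent. With the time point as a replicate block, which pairs the arrays of both courses, 4 ORFs were lower in MMS (YDR248C, YOL014W, YDR042C and YDR222W) and 2 higher (YPL108W and YDR514C). That fit called 346 of the 5449 genes lower and 654 higher. For the fits without 1 array the share of all genes called was not counted. The count lower was 1 without the 30 min peroxide array, 0 without the 60 min MMS array, and 3 without the MMS array at 30, 100 or 180 min. The median was -0.37 without the 30 min MMS array and 0.14 without the 60 min MMS array, so its sign depends on those arrays.

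The late against the early peroxide window asks whether the ORFs differed between the start and the end of the peroxide course. It passed for 3 ORFs upward, YPL068C (1.0 ± 0.22, adjusted p = 0.0227), YOR342C (0.85 ± 0.18, adjusted p = 0.0214) and YIL092W (0.39 ± 0.10, adjusted p = 0.0344), and for 2 downward, YDR042C and YOL014W, which had been above both time 0 arrays early. The shares of all genes called were 4.31% and 4.75%, and 9.07% in either direction. Without regard to the test, 45 of the 53 differences were above 0 (52.7% of all genes) and 8 below (47.3%), with a median of 0.23 against 0.02 over all genes, and 18 had an unadjusted p under 0.05 upward (15.2%) and 2 downward (12.8%). The count upward was 13 without either early MMS array, 7 without the 100 min peroxide array, 2 without either 0 min array or the 140 min MMS array and 4 without the 60 min peroxide or the 180 min MMS array. It was 0 without the peroxide array at 30, 140 or 180 min. The share of all genes called in these refits was not counted, so the counts do not tell the ORFs from all genes. The call of YIL092W was lost in 10 alternatives and kept in 8. The count downward was 0 without the peroxide array at 30 or 140 min and 1 without either 0 min array, the 100 or 180 min peroxide array or the 140 min MMS array. At 180 min of peroxide, 48 of the 53 lay within 0.5 of the 0 min array of that course (86.1% of all genes). The exceptions at 180 min were YGR035C (-1.61), YJR115W (-0.72) and YBR238C (-0.55) on the low side, and YJL107C (0.98) and YDR222W (0.51) on the high side.

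Gene groups with a name gave a frame for these counts. Of the 146 ribosome biogenesis genes, limma called 1 higher and 0 lower in the early MMS than in the early peroxide window (median 0.41), and 8 higher and 0 lower late than early in peroxide (median 0.80). Of 21 subunits of RNA polymerase I and III, which transcribe ribosomal and transfer RNA, 1 was higher late than early in peroxide, with a late MMS median of -1.96. The 122 cytosolic ribosomal protein genes lay at a median of -1.33 late in MMS but -0.06 early in peroxide. Among them 0 were called in either contrast, and 1 had an unadjusted p under 0.05 in each. Of 32 genes of the G1/S transition and replication, 6 were higher in the early MMS window and 7 were higher late than early in peroxide. Of 19 mitotic genes of the CLB2 cluster 1 was higher in the early MMS window. For 12 daughter-cell genes, 0 were called in either contrast and 2 had an unadjusted p under 0.05 between the early windows. Of 55 mitochondrial ribosomal protein genes 2 were lower in the early MMS window, and their late MMS median was -0.03. The 1054 genes with a standard name that lay 0.8 or more below time 0 late in MMS had medians of -0.06 between the early windows and 0.28 between the peroxide windows, beside -0.11 and 0.23 for the 53 ORFs. Of them 8 were higher and 32 lower in the early MMS window, and 70 higher and 3 lower late in peroxide.

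Set against each other at matched times, the courses parted step by step. The median MMS minus peroxide difference over the 53 ORFs was -0.02 before treatment, 0.06 after 30 min and -0.31 after 60 min, and then -0.62, -1.03 and -1.17 at the 3 late times. The MMS array was the lower one for 20 ORFs at 30 min (42.5% of all genes), 40 at 60 min (45.7%), 51 at 100 min (44.6%), and all 53 on both later pairs of arrays (45.2% at 140 min, 45.9% at 180 min). The values from 100 min onward contain the arrays that chose the members and are given as a description. In 11 ORFs the MMS array was above the peroxide array at both early times and below it at all 3 late ones (9.19% of all genes). The choice of the ORFs favours the late part of that pattern, so the share of all genes is not a like comparator. The late MMS and late peroxide arrays overlapped for 3 ORFs, YNL058C, YPL068C and YJR115W. In 34.0% of all genes every late MMS array lay below every late peroxide array, and the choice of the ORFs by a low late MMS signal favours such a gap.

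**Figure D5:**
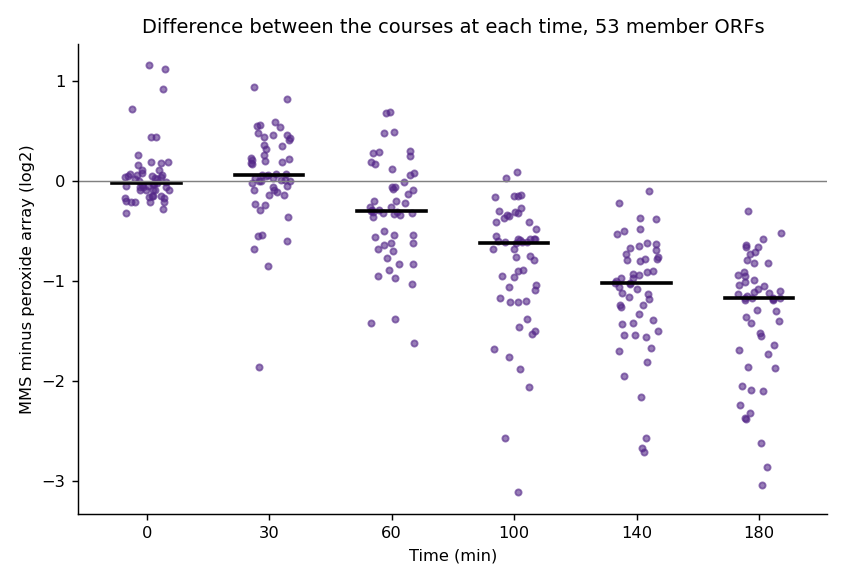
MMS minus peroxide log2 signal at each time in min, with 1 point per ORF (53 per time) and the median as a black bar. The 6 highest points at 0 min belong to probe sets of repeated elements, and from 140 min onward every point lies below 0.

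The threshold of 0.8 had ORFs close on both sides. Just inside were YDR222W (-0.84), YNL108C (-0.82) and YJR115W (-0.81), and just outside YLR462W (-0.79), YNR066C (-0.79) and YDL012C (-0.77). YLR462W and YNR066C also read higher at 0 min in the MMS course, by 1.05 and 0.73. YLR462W was dim, at 4.04 or less, was read by a shared probe set and lies 4 genes from a chromosome end. Of the ORFs left out by name, YLL053C lay -1.66 from time 0 late in MMS and -2.42 late in peroxide, and YDR341C, the arginyl-tRNA synthetase, -0.91 and -0.26.

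In the annotation the 53 ORFs, all protein-coding, lay on each of the 16 nuclear chromosomes, with 9 on chromosome II and 7 on chromosome IV. Of the 53, 7 were within 10 genes of a chromosome end (13.2%), as were 13.2% of the other systematic-name genes and 4.11% of all genes. Of 91 measured nearest protein-coding neighbours, 26 lay 0.8 or more below time 0 late in MMS (28.6%), against 20.9% of the neighbours of all genes, a difference that was not tested, and the neighbours' median was -0.04. Neighbouring members account for 6 of those 26, since YBL112C and YBL111C, YFL065C and YFL064C, and YBR219C and YBR220C are next to each other. YGR035C lies beside RPL26B (-1.96), YBL028C beside RPL19B (-1.45), YOR342C beside RPA190 (-2.77), YNL108C beside NOP15 (-2.90) and YIL092W beside UTP25 (-2.04). These neighbours were picked after their values were seen, from genes of ribosomes, their assembly and RNA polymerase I. Other such neighbours included RPS7B beside YNL095C (-2.39) and RPS27B beside YHR020W (-0.79). The mitochondrial ribosomal protein genes RSM10 beside YDR042C (0.52), RSM25 beside YIL092W (0.15) and RSM7 beside YJR115W (0.27) lay above time 0. YKL069W lies beside YKL070W, which stood 4.27 above time 0, and YBR071W beside the small heat-shock protein gene HSP26 (3.12).

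The remaining ORFs had late MMS means between -0.85 and -1.58 from time 0. YJL118W (-1.58) and YCR043C (-1.33) lay 0.8 or more below time 0 in the early MMS but not in the early peroxide window. YPL245W (-1.36), YPL108W (-1.19), YDR514C (-1.01) and YIL092W (-0.85) did so in the early peroxide but not in the early MMS window. YBR071W (-1.02), YCL002C (-1.03), YER034W (-0.89) and YDL177C (-0.85) did so in neither. By mean signal over the 12 arrays, 22 of the 53 lay in the dimmest 25% of all genes (41.5%), as did 51.3% of the other systematic-name genes.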

How the data were processed

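RNA from 2 stress courses of yeast was measured on 12 one-colour Affymetrix arrays. Per the submitters' processing notes, the deposited log2 signals of probe sets came from RMA. Its version, and whether all arrays were normalized together, are not given in the sources used here. RMA has no detection call, so dim probe sets carry values near background. Of 5900 probe sets, 184 were controls and 218 others had no gene listed. The other 5498 gave 5449 genes by the brightest probe set, and 12 symbols were updated through RefSeq's R64 assembly, which also gave the gene order. No genome build is named with the values, so no coordinates are given.

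A model of 5 groups (time 0, early and late windows) was fitted to all genes (limma 3.58.1 under R 4.3.3). It left 7 residual degrees of freedom, and a gene was called at a two-sided Benjamini-Hochberg adjusted p under 0.05 over 5449 genes. Only MMS early against H2O2 early, and H2O2 late against early, were tested. Tested differences are log2 ± SE. Tested on simulated data of 5449 genes with 200 changed, the fit found 79.1% of 2-fold changes in the first contrast and 85.1% in the second, but 22.4% and 32.8% of changes of 0.5 log2. The simulated noise was independent between arrays, with no trend within a window, so these rates need not hold for the real courses.

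The members, lists and tests were chosen with earlier results of these data known. Genes named were the 12 lowest late in MMS, the largest called differences, the extremes of each early window and those next to the thresholds. ORFs named for a known role, a repeat or a neighbour were chosen after their values were seen. Alternatives were median centring, quantile normalization, the dimmest 25% left out, limma with trend and robust moderation, the mean of probe sets, other windows, time as a block, other thresholds and name rules, own-course baselines and each array left out. Promoter motifs were not analysed here.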

Additional observations from a re-analysis of the deposited data

Results flagged for a closer look

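In 11 of the 53 ORFs the MMS array lay above the peroxide array at both 30 and 60 min and below it at 100, 140 and 180 min, against 9.19% of all genes. The turn from early to late was not tested, because the late MMS arrays chose the members. That choice favours the late part of the pattern, so the share of all genes is not a like comparator. Among ORFs with a known or predicted activity, the mean MMS minus peroxide difference went from 0.42 early to -0.46 late for YGR054W (eIF2A), from 0.23 to -0.94 for YHR020W (prolyl-tRNA synthetase), from 0.41 to -1.17 for YML096W and from 0.30 to -0.44 for YLR419W. The widest early differences were those of YPL108W (0.62 early, -0.74 late), YDR514C (0.56, -0.48) and YPL068C (0.53, -0.39). YNL108C went from 0.42 to -0.58 and YIL092W from 0.28 to -0.41. The smallest early differences were those of YPL245W (0.20 early, -1.03 late) and YDL241W (0.13, -1.42). The 11 were picked partly by the sign of their early differences, so p-values for those differences do not test the pattern. Of the 11 early differences, limma called 0, and 5 had an unadjusted p under 0.05. These 5 were all of the 53 ORFs that were higher at that level (9.43%, against 17.6% of all genes). With the time point as a replicate block, the early differences of YPL108W (adjusted p = 0.0344) and YDR514C (adjusted p = 0.0157) were called. That fit called 654 of the 5449 genes higher.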

How the results depend on the processing

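The number of members was 31 when the dimmest 25% of genes were left out, since 22 members are dim, and between 50 and 56 when 1 array was left out. Each course's own 0 min array as baseline gave 54, with 5 ORFs entering and 4 leaving. Letter-suffix names would add 17. The share of all genes called was counted only in the main fit and with the time point as a replicate block. The counts of members called were small. They moved by over 1.5 times in 1 (higher) and 6 (lower) alternatives of MMS early against H2O2 early, and in 9 (higher) and 12 (lower) of H2O2 late against early, and the cause was not tested. MMS early against H2O2 early was also fitted with the time point as a replicate block, which pairs the arrays of both courses at one time. Over all 5449 genes, 130 lower and 313 higher became 346 and 654 in that fit. Among the members, 2 lower and 0 higher became 4 and 2, so a rise in calls was not particular to them. The count lower was 1 without the dimmest 25% of genes, 0 with an early window of 30 min only, 5 with one of 30 to 100 min, and 0 to 3 when 1 array was left out. Its median over members was -0.37 to 0.14 when 1 array was left out. In H2O2 late against early, the count higher (3) was 1 without the dimmest 25%, 0 under either other window, and 0 to 13 when 1 array was left out. The count lower (2) was 1 with quantile normalization, 1 with trend and robust moderation, 0 without the dimmest 25%, 0 under either other window, and 0 to 2 when 1 array was left out. None of the 7 called differences of named ORFs changed sign under these alternatives, the leave-one-out fits included. The count of ORFs 0.8 or more below time 0 early in MMS was 25 with centred arrays and 27 with quantile normalization, against 21 as deposited. Those of early peroxide were 18 and 23, against 22. Adjusted p-values of the 7 ranged from 0.00545 to 0.631. The calls were lost in 11 alternatives and kept in 7 for YDR042C, 10 and 8 for YIL092W, 5 and 13 for YPL068C, 5 and 14 for YOR342C, 4 and 14 for YOL014W in peroxide, 4 and 15 for YOL014W and 3 and 17 for YDR248C between the early windows. Leaving out the 8 ORFs on shared probe sets, an alternative chosen after seeing the data, left 45 ORFs and the same called counts. The promoter motif alternative was not run.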

Other observations

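A further 17 genes whose only name is systematic but ends in a letter suffix met the same thresholds, with late MMS means between -3.34 and -0.80 from time 0 and a median of -1.77. YLR363W-A, lowest of them, read 10.57, 9.68, 7.56, 6.88, 7.14 and 7.88 in MMS and 10.70, 9.61, 8.21, 9.26, 9.65 and 10.11 in peroxide. YCR087C-A read 11.39, 11.13, 10.21, 8.64, 8.33 and 8.75 in MMS, with its late mean -2.86 from time 0. YNL162W-A was lowest early in both courses, with 7.90, 6.43, 5.41, 5.5, 5.91 and 6.55 in MMS and 8.06, 5.73, 5.63, 6.78, 7.55 and 8.10 in peroxide, and was higher late than early in peroxide (1.79 ± 0.42, adjusted p = 0.0308).

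Of these 17, 5 had shared probe sets, and among them YBL100W-A, YBL005W-A and YGR109W-A encode Gag proteins of Ty retrotransposons. All 3 were lower in the early MMS than in the early peroxide window, with differences of -1.34 ± 0.35, adjusted p = 0.0479 for YBL100W-A, -1.29 ± 0.28, adjusted p = 0.0257 for YBL005W-A and -0.99 ± 0.21, adjusted p = 0.0257 for YGR109W-A. They also read higher at 0 min in the MMS course, by 0.98, 0.72 and 0.50, as did the subtelomeric YEL076C-A, by 1.47, and its late MMS mean lay -3.16 from both 0 min arrays. In YMR030W-A the early MMS window was higher than the early peroxide window (1.06 ± 0.24, adjusted p = 0.0302). These ORFs were looked at after the values were seen.

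Genes of other cell states were read as values against time 0 late in MMS, with no test. Of the sporulation genes, DIT1 stood at 1.24, SMK1 at 1.10, NDT80 at 0.99, SPS1 at 0.70, DIT2 at 0.58, IME2 at 0.37 and SPS2 at 0.07, all above time 0, and IME1 at -0.48. Of the mating genes, FIG2 stood at -1.82, AGA1 at -1.53, FIG1 at -1.05, PRM1 at -1.0 and FUS1 at -0.11, all below time 0, and FUS2 at 0.59.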
